A study of Rattus norvegicus with 4 samples.

Results

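The transcripts of the resting rat hippocampus were described here from the sedentary channel of 4 dual-colour chips, that is 4 of the 8 channels of the series. Its RNA came from male Wistar rats, aged 10 weeks when they were allocated to groups, that lived in standard cages without a wheel for the 4 weeks in which the other groups ran. The sedentary group held 10 rats. Equal amounts of RNA from replicates of the group were pooled before labelling. By these amounts a pool held fewer replicates than the group had rats, so the values may not average the whole group. Whether 1 sedentary pool served all chips is not given in the sources used here. The chips were rat whole-genome oligonucleotide arrays, on which each probe is a short DNA strand that binds 1 transcript and lights up with the amount of dye-labelled RNA bound to it. Sedentary RNA was labelled with Cy3 on chips 1 and 3 and with Cy5 on chips 2 and 4. The other channel held RNA of rats with wheel running without resistance (WR) on chips 1 and 2, and of rats with resistance wheel running (RWR) on chips 3 and 4, and it was not analysed here. The 4 chips are repeated measurements of pooled RNA, so the SD given below is the spread between chips, which would also hold a difference between pools if there was more than 1. No spread between rats can be given, and no test was made.

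The hippocampus is a brain region needed for forming memories of places and events. Its principal cells are the excitatory granule neurons of the dentate gyrus and the pyramidal neurons of the CA fields, which release glutamate and are held in check by interneurons that release GABA and often a peptide as well. Astrocytes, oligodendrocytes, microglia and the cells of blood vessels make up the rest of the tissue. The choroid plexus, which secretes the cerebrospinal fluid, lies next to the hippocampus and can come along in a dissection. In RNA of a whole tissue, fewer cells of a type and less RNA per cell cannot be told apart.

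All probes whose spots were measured without an outlier flag on every chip were kept, which gave 41004 of 41012 probes. A probe was called bright if its mean log2 processed signal was among the highest 10% and the scanner software marked it well above background on all 4 chips. The lowest bright probe had a mean log2 signal of 10.96, and 4101 probes were bright. Probes above background on all chips but under that limit were called moderate and numbered 21965 (53.6%). A further 9599 probes (23.4%) were above background on some chips (partly detected), and 5339 (13.0%) were not well above background on any chip (called undetected here, as a statement on the probe). Brightness also depends on how well a probe binds, so these classes describe the signal of probes and do not rank genes by the number of their transcripts.

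A gene name could be given to 10767 of the classed probes, for 8898 genes, and a gene was represented by its probe with the highest mean signal. Of these genes, 6082 were above background on all 4 chips (68.4%) and 1548 were bright (17.4%), whereas 1066 were not well above background on any chip (12.0%). Olfactory receptors made up 1090 of the named genes. Without them, 76.5% of the other 7808 named genes were above background on all chips, 19.8% were bright and 7.98% were not above background. These shares are the background for the counts of gene groups below. A log2 signal step of 1 is a factor of 2 in intensity.

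**Figure D1:**
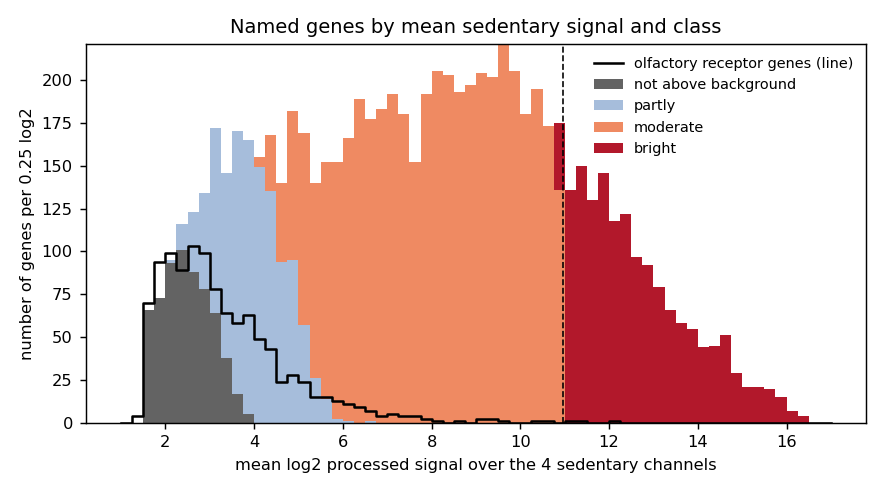
Number of named genes (y axis) by mean log2 processed signal over the 4 sedentary channels (x axis, bins of 0.25 log2); the stacked bars hold genes other than olfactory receptors, coloured by class, the black line holds the 1090 olfactory receptor genes, and the dashed line marks the bright limit of 10.96. The olfactory receptor line lies mostly at the low end, with a median of 2.96, while most of the other genes lie to its right.

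The promoter windows of a few genes at both ends of the scale are shown first, since the sequence of these windows differed between the classes although it had no part in forming them. Each window runs from 250 bases before to 50 bases after the RefSeq start of the gene, 5′ to 3′ on the strand of the gene. Rps6 (a protein of the small ribosomal subunit) and Cst3 (the protease inhibitor cystatin C) stand for bright genes, and Tas2r119 (a bitter taste receptor) and Or2av10 (an odorant receptor) for genes not above background. For Tas2r119 and Or2av10 the RefSeq start falls on an ATG, the codon that opens a coding sequence. Their records may thus lack the untranslated first part of the transcript, and their windows may not hold the site where transcription begins. In these 4 sequences capitals mark every CG dinucleotide, the site of DNA methylation in mammals.

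Rps6 (GRCr8, chr5:106420491-106420790, minus strand): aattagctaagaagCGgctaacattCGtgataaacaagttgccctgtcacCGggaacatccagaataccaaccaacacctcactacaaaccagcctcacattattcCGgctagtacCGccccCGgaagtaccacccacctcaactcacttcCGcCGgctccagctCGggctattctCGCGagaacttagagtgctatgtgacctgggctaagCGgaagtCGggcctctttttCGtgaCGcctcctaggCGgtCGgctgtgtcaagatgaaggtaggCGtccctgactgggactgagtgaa

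Cst3 (GRCr8, chr3:156793888-156794187, minus strand): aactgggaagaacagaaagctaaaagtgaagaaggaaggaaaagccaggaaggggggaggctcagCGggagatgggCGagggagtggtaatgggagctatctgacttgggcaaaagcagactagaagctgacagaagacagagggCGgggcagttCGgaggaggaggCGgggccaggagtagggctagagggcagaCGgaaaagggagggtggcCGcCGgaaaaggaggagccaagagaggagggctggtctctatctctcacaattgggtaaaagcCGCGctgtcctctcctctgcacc

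Tas2r119 (GRCr8, chr2:84948239-84948538, plus strand): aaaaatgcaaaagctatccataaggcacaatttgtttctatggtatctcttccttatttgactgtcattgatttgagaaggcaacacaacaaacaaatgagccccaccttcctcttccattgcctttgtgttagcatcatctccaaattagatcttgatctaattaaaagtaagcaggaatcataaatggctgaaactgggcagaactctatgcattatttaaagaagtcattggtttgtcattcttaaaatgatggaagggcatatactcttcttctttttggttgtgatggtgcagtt

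Or2av10 (GRCr8, chr10:43157072-43157371, minus strand): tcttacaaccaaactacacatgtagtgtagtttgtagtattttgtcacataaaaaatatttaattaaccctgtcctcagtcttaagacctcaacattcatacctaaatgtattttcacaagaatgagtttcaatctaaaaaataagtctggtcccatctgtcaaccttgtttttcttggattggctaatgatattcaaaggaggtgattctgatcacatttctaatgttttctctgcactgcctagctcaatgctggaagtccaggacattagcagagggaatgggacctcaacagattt

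The Rps6 window held 18 CG dinucleotides and the Cst3 window held 10, and the windows of Tas2r119 and Or2av10 held none. On the 4 chips the log2 signal of Rps6 was 15.86, 15.73, 15.86 and 15.76, and that of Cst3 was 16.27, 16.63, 16.32 and 16.64. The log2 signal of Tas2r119 was 2.02, 1.80, 2.02 and 1.53, and that of Or2av10 was 1.85, 1.73, 1.05 and 1.35. Every chip placed the first pair of genes far over the bright limit, and on no chip was the second pair well above background.

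The same contrast held between the class medians of the 7235 measured genes with a RefSeq promoter. Excluding olfactory receptors, the median number of CG dinucleotides per window was 23 for 1252 bright genes and 20 for 3615 moderate genes. It was 6 for 951 genes above background on some chips and 5 for 495 genes not above background. The 922 olfactory receptor promoters had a median of 1. Single gene lists did not all follow the classes. Ribosomal and respiratory promoters had medians of 22 and 20.5, and liver promoters had 5. But the 9 promoters of microglial genes, a list wholly above background, had a median of 4, and the 16 astrocyte promoters had 10. The GC box GGGCGG, searched on both strands, was found in 68.2% of bright, 58.8% of moderate, 33.2% of partly detected and 21.4% of undetected genes other than olfactory receptors. The TATA box TATAAA, also searched on both strands, ran the other way, with 7.91% and 7.75% of bright and moderate genes against 16.6% and 18.2% of partly detected and undetected genes. Over all 27456 promoters of the table, 34.9% held GGGCGG and 14.3% held TATAAA. Here too lists departed from the classes. Microglial promoters held GGGCGG in 33.3% and TATAAA in 22.2% of cases. In promoters of testis genes, mostly partly detected or undetected, these shares were 47.4% and 0%. The CCAAT box, searched as CCAAT on both strands, differed less between the classes, with shares of 40.9%, 38.3%, 37.9% and 34.7% from bright to undetected and 37.7% over all promoters. These are descriptions of letters in a window across genes, which are not independent replicates. Where a record starts at its coding sequence, the window is shifted, and the part of such records in these differences was not tested.

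**Figure D2:**
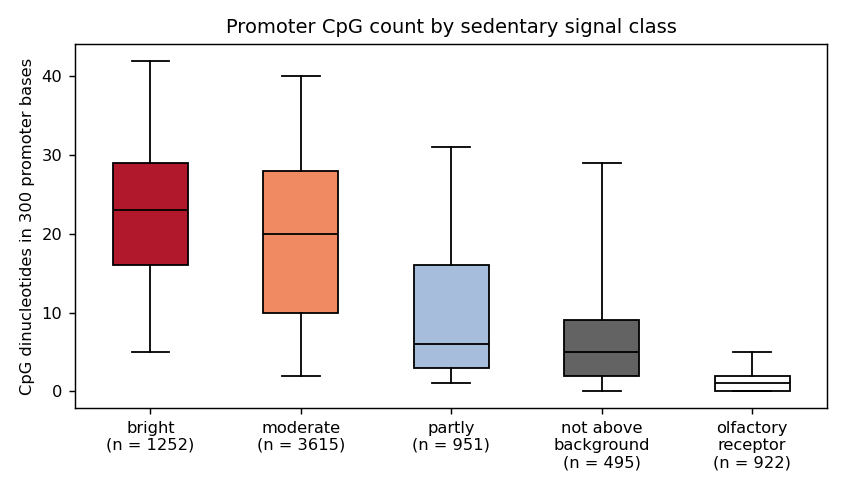
Number of CG dinucleotides (y axis) in the 300-base promoter window of measured genes by signal class (x axis, n genes below each box); olfactory receptors have a box of their own and are left out of the others. Boxes span the quartiles with the median as a line, and whiskers reach the 5th and 95th percentiles; medians fall from 23 in bright genes to 5 in undetected genes and 1 in olfactory receptors.

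The highest mean log2 signals were those of Cst3 with 16.46 ± 0.20 (SD over 4 chips, as in all values below), Cox6a1 (a subunit of cytochrome c oxidase) with 16.41 ± 0.08 and Rplp1 (a ribosomal stalk protein) with 16.29 ± 0.13. Ndrg2, a gene of astrocytes, followed with 16.25 ± 0.04, and Zwint, which encodes a kinetochore protein, with 16.21 ± 0.12. On single chips Cox6a1 read 16.49, 16.31, 16.40 and 16.42, and Rplp1 read 16.42, 16.20, 16.38 and 16.17. The 4 chips lay close together for both genes. The other 15 of the 20 brightest genes were Slc22a17 (16.19 ± 0.15), Atp5me, Ppial4g, Pgam1, Rps23, Arf3, Ubb, Snrpn, Sv2b, Pebp1, Ndrg4, Rpl37l1, Ap2m1, Apbb1 and Mif, the last with 15.89 ± 0.08. Among them Sv2b is a synaptic vesicle protein, Ap2m1 a subunit of the clathrin adaptor that retrieves vesicle membrane, and Apbb1 a partner of the amyloid precursor protein. No probe was saturated on any chip, so these values are not capped by the scanner.

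Cytosolic ribosomal protein genes had the highest share of bright genes of the 59 lists with a measured gene. Of 66 measured genes, 63 were bright and the other 3 were moderate. Rps23 had a mean log2 signal of 16.06 ± 0.09, Rpl8 of 15.78 ± 0.12 and Rpl41 of 15.73 ± 0.15. The moderate genes were Rplp0 with 10.68 ± 0.14, Rpl37al2 with 8.37 ± 0.47 and Rps26 with 6.73 ± 0.60. Rps26 read 6.12 and 6.33 on chips 1 and 2 but 7.37 and 7.09 on chips 3 and 4, so the chips of the first pair lay below those of the second. Bright ubiquitin genes numbered 13 of 14, led by Ubb with 15.95 ± 0.15, and only the ubiquitin-conjugating enzyme gene Ube2b, with 4.54 ± 0.22, was above background on fewer than 4 chips.

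Genes of energy metabolism were next. In the respiratory chain and ATP synthase, 40 of 49 measured genes were bright and 47 were above background, led by Cox6a1, Atp5me (16.10 ± 0.12) and Cox8a (15.75 ± 0.19). The genes not well above background on any chip were Cox8c, with 2.23 ± 1.01, and Uqcrq, with 3.19 ± 0.68. Cox8c is a testis form of a cytochrome oxidase subunit, and the heart and muscle form Cox8b had 6.52 ± 0.04, beside the widely expressed Cox8a. Uqcrq is a subunit of complex III that all respiring cells use, and its single probe read 3.79, 2.37, 3.71 and 2.91. The value of Uqcrq therefore describes its probe and cannot be read as absence of the transcript.

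Glycolytic genes differed by isoform. Of 25 measured genes, 14 were bright, 2 were moderate and 4 were not above background. Bright members were Pgam1 (16.07 ± 0.05), Gapdh (15.58 ± 0.08), Eno1 (15.12 ± 0.07) and Ldhb (14.93 ± 0.18). The neuronal enolase Eno2 had 14.77 ± 0.01, the astrocytic aldolase Aldoc 14.04 ± 0.12 and the brain hexokinase Hk1 13.82 ± 0.12. The genes not above background included the liver form Pklr (2.02 ± 0.22) and the testis forms Ldhc (2.45 ± 0.70) and Pgk2 (2.15 ± 0.82). Hexokinase forms of other tissues were also low, with Hk2 at 2.76 ± 1.27 and Hk3 at 3.76 ± 0.26. The muscle enolase Eno3 was moderate, with 9.34 ± 0.09.

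In protein quality control, all 32 measured proteasome genes were above background and 23 were bright, from Psmc5 (14.93 ± 0.14) to Psmb8 (7.90 ± 0.07). Of the catalytic subunits of the immunoproteasome, which replace standard subunits in immune cells, Psmb10 was bright (12.05 ± 0.12), and Psmb9 (9.37 ± 0.24) and Psmb8 were moderate. Of 50 chaperone genes, 46 were above background and 16 bright, led by Hsp90aa1 (15.62 ± 0.05), and none was undetected on all chips. Tubulins and actins with their partners had 14 bright genes of 24, among them Tmsb4x (15.78 ± 0.13), Tubb4b (15.58 ± 0.09) and Actb (15.47 ± 0.08). The cardiac and skeletal actins Actc1 (9.08 ± 0.32) and Acta1 (5.55 ± 0.09) were moderate, and the testis actin-like genes Actl11 and Actl9b were not above background. Among 15 genes often used as references, all were above background and 11 were bright, with Tbp (8.72 ± 0.09) and Gusb (5.01 ± 0.10) at the low end.

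**Figure D3:**
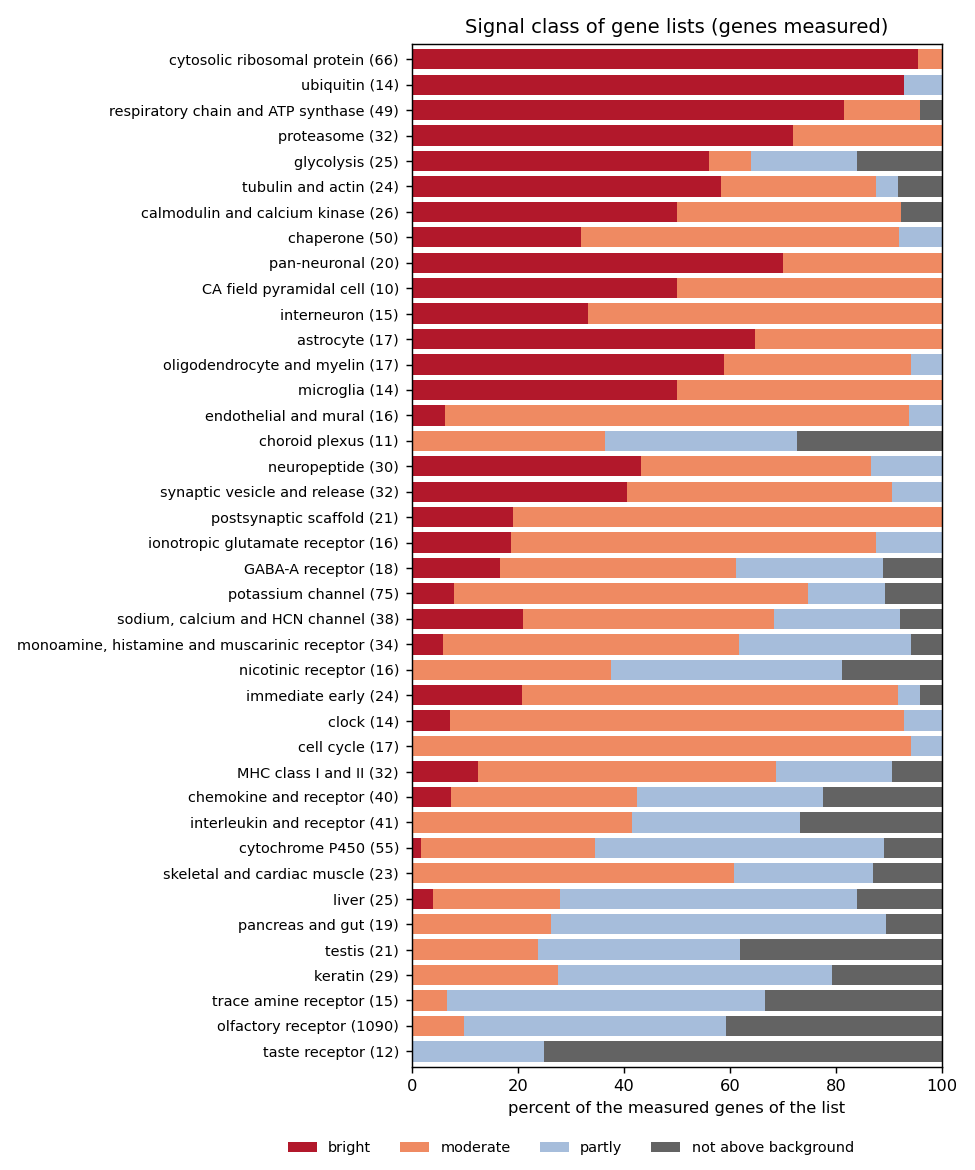
Percent of the measured genes of 40 gene lists (x axis) in each signal class, with the number of measured genes beside each list name; bars add up to 100%. Ribosomal, ubiquitin and respiratory genes are mostly bright, the neuron, astrocyte, oligodendrocyte, microglia and vessel lists are almost wholly bright or moderate, and the sensory receptor lists at the bottom are mostly partly detected or undetected.

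Markers of every main hippocampal cell type were detected. Since 76.5% of all named genes other than olfactory receptors were above background, detection alone does not check the tissue label. All 20 measured pan-neuronal genes were above background on all chips and 14 were bright. Snap25, which drives vesicle fusion, had 15.08 ± 0.06. The postsynaptic calmodulin-binding gene Nrgn had 14.68 ± 0.03, the growth-cone gene Gap43 13.76 ± 0.08 and the dendritic gene Map2 10.27 ± 0.14. The lowest of the list was the heavy neurofilament Nefh, with 9.51 ± 0.15.

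For principal neurons, all 10 measured markers of the CA fields were above background, 5 of them bright. Crym, a thyroid hormone-binding protein, had 15.63 ± 0.10, Pcp4 (a calmodulin regulator of CA2 cells) 14.63 ± 0.17, Neurod2 12.19 ± 0.16 and the CA2 gene Rgs14 11.51 ± 0.20. Wfs1 of CA1 had 10.27 ± 0.14 and Grik4 of CA3 8.66 ± 0.12. Only 4 markers of dentate granule cells had a named probe. Of these, Pdyn (prodynorphin) had 12.25 ± 0.05 and Calb1 (calbindin) 11.17 ± 0.08 and both were bright, Trpc6 had 7.79 ± 0.12, and Tdo2 with 4.67 ± 0.51 was above background on 3 chips. Genes of progenitors and immature neurons, which the adult dentate gyrus still makes, were moderate in 7 of 8 cases. Dcx (doublecortin) read 10.30, 10.14, 10.33 and 10.19, Neurod1 had 10.58 ± 0.13 and Nes (nestin) 9.33 ± 0.12, whereas Sox11 with 5.16 ± 0.47 was above background on 3 chips. Of 17 cell cycle genes, 16 were moderate and none was bright, from Pcna (10.83 ± 0.11) and Ccnd1 (10.75 ± 0.02) to Ccnb2 (4.46 ± 0.46).

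All 15 measured interneuron genes were above background and 5 were bright. The bright genes included Cck (14.38 ± 0.18), Sst (13.93 ± 0.03), Npy (13.15 ± 0.04) and Reln (11.32 ± 0.07). The enzymes that make GABA, Gad1 and Gad2, had 10.24 ± 0.02 and 10.11 ± 0.18, and the vesicular GABA transporter Slc32a1 had 10.85 ± 0.23. Pvalb, the parvalbumin of fast-spiking cells, had 10.81 ± 0.15, and Nos1 had the lowest mean signal of the list with 4.71 ± 0.11.

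Glial genes were widely detected too. All 17 astrocyte genes were above background and 11 were bright, led by Cst3, Apoe (the lipid carrier, 15.86 ± 0.07), Sparcl1 (15.65 ± 0.40) and Clu (14.73 ± 0.12). The glutamate transporters Slc1a3 and Slc1a2 had 14.54 ± 0.09 and 12.87 ± 0.04. The classical markers Gfap and S100b were moderate. Gfap had 8.75 ± 0.22, and S100b read 8.21, 8.70, 8.99 and 9.26. The second pair of chips lay above the first for S100b. The water channel Aqp4 was the lowest of the list with 7.49 ± 0.19.

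Of 17 oligodendrocyte genes, 16 were above background and 10 bright. Mbp, a main protein of myelin, read 13.54, 13.25, 13.61 and 13.23 and was bright on every chip. The transcription factors Olig1 and Sox10 had 12.69 ± 0.09 and 11.28 ± 0.03. Ugt8, which makes the galactolipids of myelin, was above background on 3 chips and read 4.71, 6.37, 6.13 and 6.26, so chip 1 stood apart. Of the 4 measured genes listed for oligodendrocyte precursors, Ptprz1 had 11.20 ± 0.06, Cspg4 (also of pericytes) 10.62 ± 0.38, and Cacng4 with 4.43 ± 0.59 was above background on 2 chips.

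All 14 microglial genes were above background and 7 were bright. Ctss (the protease cathepsin S) had 13.78 ± 0.09, and the complement genes C1qb and C1qa had 12.97 ± 0.14 and 11.83 ± 0.14. The purine receptor P2ry12, typical of resting microglia, had 10.26 ± 0.11, the fractalkine receptor Cx3cr1 7.23 ± 0.10 and Itgam, the lowest, 6.86 ± 0.10. In vessels, 15 of 16 genes were above background but 1 was bright, the glucose transporter Slc2a1, with 12.39, 12.22, 12.58 and 12.23 on the chips. Cldn5, a tight junction gene of the blood-brain barrier, had 10.85 ± 0.18, Kdr 10.71 ± 0.13 and the pericyte receptor Pdgfrb 8.45 ± 0.09. Pecam1 read 3.66, 3.57, 3.79 and 3.79 and was above background on 1 chip.

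**Figure D4:**
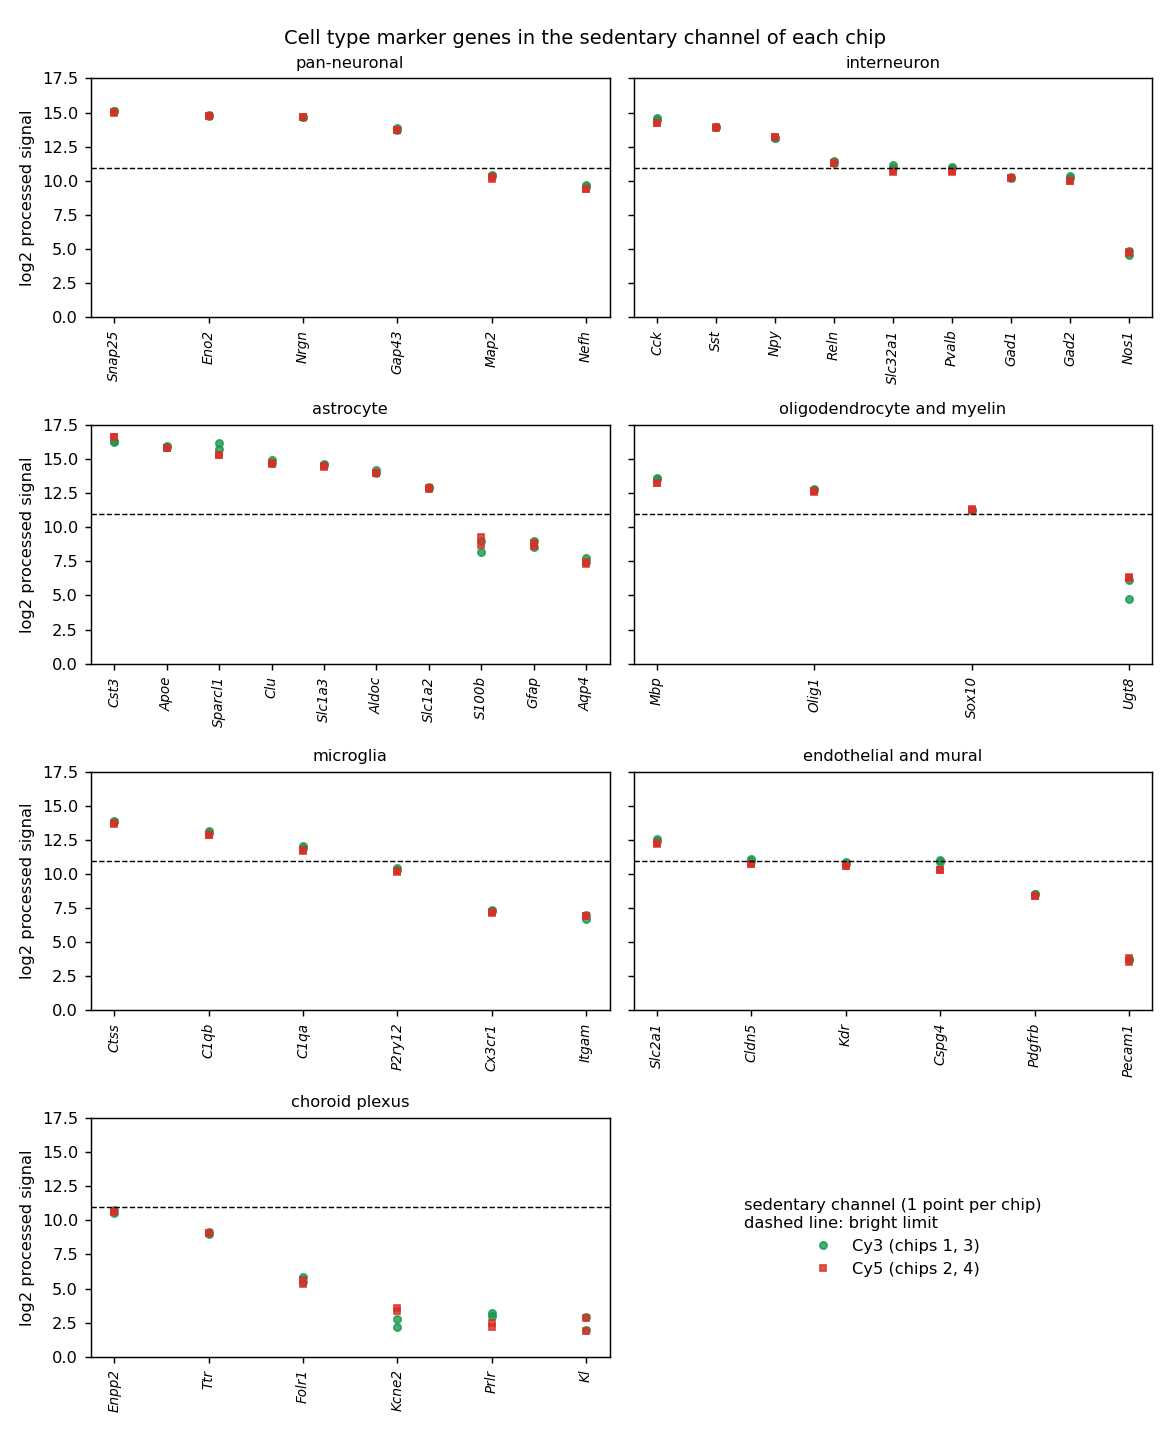
Log2 processed signal (y axis) of the marker genes named in the text (x axis) in the sedentary channel of each chip, with Cy3 chips as circles and Cy5 chips as squares; 1 panel per cell type, and the dashed line marks the bright limit of 10.96. The 4 points lie close together for most genes above background, with a wider spread for some, such as S100b (SD 0.45) and Sparcl1 (SD 0.40). The choroid plexus panel falls below the others.

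Markers of neighbouring tissue and of blood were mixed. Of 11 choroid plexus genes, 4 were above background on all chips, none was bright and 3 were not above background. Ttr (transthyretin), the dominant transcript of that tissue, read 9.02, 9.05, 9.18 and 9.06, and Folr1 read 5.51, 5.33, 5.85 and 5.62. Enpp2 had 10.66 ± 0.10 and is also expressed by oligodendrocytes, while Kl (klotho), Prlr and Kcne2 were not above background. Ependymal genes were moderate in 5 of 6 cases, with Foxj1 at 7.88 ± 0.05. Among 9 blood genes, 6 were above background. Hbb-b1 (beta globin) was bright with 12.55, 12.96, 13.37 and 13.20, Hbb had 9.04 ± 0.16 and the red cell enzyme Alas2 7.29 ± 0.09. The share of residual blood in these values was not tested.

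Genes typical of other brain regions were above background in shares of 81.8% for the striatum, 85.7% for the thalamus and habenula and 56.2% for the hypothalamus and monoamine nuclei, beside 76.5% of all named genes other than olfactory receptors. For the striatum these were 9 of 11 genes, with Rasd2 bright (13.41 ± 0.09), Penk at 9.81 ± 0.13 and Ppp1r1b at 6.54 ± 0.21, whereas the dopamine receptors Drd2 and Drd1 had 5.01 ± 0.68 and 3.61 ± 0.41 and were above background on 3 and 2 chips. For the thalamus and habenula 6 of 7 were above background, with the glutamate transporter Slc17a6 at 9.63 ± 0.10, and the habenular receptor Gpr151 with 3.16 ± 1.45 was above background on 1 chip. For the hypothalamus and the monoamine nuclei 9 of 16 were above background. The peptides Hcrt (orexin), Pmch and Avp had 7.44 ± 0.15, 7.23 ± 0.13 and 7.27 ± 0.07, Th had 5.43 ± 0.27, and Oxt with 5.07 ± 0.65 was above background on 3 chips. Hcrt read 7.32, 7.34, 7.47 and 7.64 and was above background on every chip. The dopamine transporter Slc6a3 was not above background, with 3.07 ± 0.73. Of 9 pituitary genes, 6 were above background, among them Pomc (8.78 ± 0.09) and Gh1 (6.12 ± 0.21), and Pou1f1 was undetected with 1.70 ± 0.22.

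Of 30 measured neuropeptide and granin genes, 26 were above background and 13 bright. The granins and their relatives, which package peptides into dense-core vesicles, led with Chgb at 15.50 ± 0.09, Scg5 at 15.18 ± 0.25 and Scg3 at 14.65 ± 0.08. The peptide genes Vgf and Tac3 had 13.18 ± 0.11 and 12.01 ± 0.11 beside Cck, Sst, Npy and Pdyn. Grp had 11.38 ± 0.21, Cort 10.80 ± 0.11 and Calca 10.78 ± 0.08. The lowest were Ucn, Oxt, Trh and Nmu, each above background on 3 chips or fewer, with Nmu at 3.41 ± 1.07. Sst read 13.92, 13.94, 13.96 and 13.90, with the smallest SD of the neuropeptide genes (0.03).

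The promoter of Sst, whose cAMP response element is a textbook site for the transcription factor CREB, is shown with that element TGACGTCA in capitals.

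Sst (GRCr8, chr11:90461296-90461595, plus strand): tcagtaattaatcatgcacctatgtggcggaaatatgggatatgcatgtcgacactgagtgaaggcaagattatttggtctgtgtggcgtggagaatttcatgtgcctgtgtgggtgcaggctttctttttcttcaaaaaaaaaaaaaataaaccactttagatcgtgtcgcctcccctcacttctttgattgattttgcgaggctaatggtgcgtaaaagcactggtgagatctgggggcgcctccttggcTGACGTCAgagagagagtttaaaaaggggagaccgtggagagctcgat

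TGACGTCA reads the same on both strands and contains TGACG. It was found in 2.49% of the 7235 measured promoters and in 1.91% of all promoters of the table. Excluding olfactory receptors, its share was 3.75%, 3.07%, 1.79% and 1.01% from bright to undetected genes. Among neuropeptide genes it stood in 5 of 23 promoters, those of Cartpt, Scg2, Sst, Ucn and Vgf. Among immediate early genes it stood in 4 of 16, those of Btg2, Dusp1, Ier2 and Jund. The carriers in these lists ran from Sst and Jund in the bright class (13.76 ± 0.08 for Jund) through Cartpt (9.26 ± 0.12), Btg2 (9.37 ± 0.09) and Dusp1 (5.34 ± 0.23) to Ucn, which was above background on 3 chips. None of them was undetected. Both lists were described after earlier results of these data were known, and a match is not a site of binding.

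Immediate early genes, which neurons switch on within minutes of activity, were above background in 22 of 24 cases in the resting group. Arc, a regulator of synaptic glutamate receptors, read 11.82, 11.79, 11.89 and 11.75 and was bright on every chip. Egr1 read 11.21, 11.30, 11.41 and 11.32, and Nr4a1 had 11.10 ± 0.09. Fos was moderate, with 5.83 ± 0.12. Npas4, an activity-dependent transcription factor of neurons, read 2.18, 2.10, 2.36 and 2.48 and was not above background on any chip, and Fosl1 (4.28 ± 0.54) was above background on 2. Klf4 had 8.09 ± 0.11 and Homer1 10.19 ± 0.12.

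Synaptic genes were detected on both sides of the synapse. Of 32 vesicle and release genes, 29 were above background and 13 bright, led by Sv2b (15.93 ± 0.04), Snap25 and Syt5 (14.22 ± 0.21). Syp (synaptophysin) had 13.65 ± 0.06. The vesicular glutamate transporter Slc17a7, typical of hippocampal pyramidal cells, had 9.15 ± 0.20, and Slc17a8 with 4.27 ± 0.46 was above background on 2 chips. All 21 postsynaptic scaffold genes were above background and 4 were bright, namely Camk2b (13.65 ± 0.16), Shank3 (12.56 ± 0.06), Dlgap1 (12.29 ± 0.18) and Lin7b (11.82 ± 0.15). Camk2a had 9.89 ± 0.24 and Dlg4 (PSD-95) 8.94 ± 0.39. Of 26 genes of calmodulin and calcium-dependent enzymes, 24 were above background and 13 bright, among them the calmodulin gene Calm2 (15.68 ± 0.04) and the calcineurin gene Ppp3ca (14.88 ± 0.09). In this group Camk2d (2.44 ± 0.38) and the testis calcineurin subunit Ppp3r2 (2.34 ± 1.00) were not above background.

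Of the ionotropic glutamate receptors 14 of 16 were above background and 3 were bright. Grin1, the obligate subunit of NMDA receptors, read 13.54, 13.54, 13.60 and 13.48. Gria2, which makes AMPA receptors impermeable to calcium, read 12.68, 12.70, 12.88 and 12.69. The third bright gene was Grin2c, a subunit known best from cerebellum, with 12.97, 12.59, 13.03 and 12.59, while the forebrain subunits Grin2a and Grin2b had 10.21 ± 0.12 and 7.02 ± 0.14. Each of these subunits was represented by its own probe, so the values cannot be read as a subunit ratio. All 6 measured metabotropic receptors were above background and 1 was bright, with Grm7 at 7.49 ± 0.09.

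Of 18 GABA-A receptor subunits, 11 were above background, 3 were bright and 2 were not above background. Gabrb1 had 12.38 ± 0.01, Gabrq 12.44 ± 0.29 and Gabrd, the subunit of tonic inhibition in granule cells, 11.12 ± 0.15. Gabra5, a subunit typical of hippocampus, had 9.03 ± 0.15. Gabra6, the subunit of cerebellar granule cells, read 3.14, 2.80, 2.58 and 1.45 and was undetected, as was Gabre (1.78 ± 0.58). Gabbr2 and Gabbr1, the subunits of the GABA-B receptor, were both bright with 14.08 ± 0.21 and 11.81 ± 0.26. The spinal glycine receptor subunit Glra1 was above background on 1 chip, with 2.88 ± 1.35.

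Receptors for modulators were mixed. Of 34 receptors for monoamines, histamine and acetylcholine of the muscarinic kind, 21 were above background and 2 bright, Chrm3 (13.28 ± 0.13) and Adra1d (12.01 ± 0.15). The serotonin receptor Htr1a had 6.62 ± 0.10, Htr7 8.20 ± 0.04 and the muscarinic receptor Chrm1 7.13 ± 0.14, while Htr1d (2.53 ± 0.47) and Chrm5 (3.23 ± 0.75) were not above background. Of 16 nicotinic subunits, 6 were above background, none was bright and 3 were not above background. Chrna7, the main homomeric subunit in hippocampus, read 9.29, 9.21, 9.43 and 9.21, and Chrna6, a subunit of midbrain dopamine neurons, read 1.90, 2.02, 2.56 and 1.46. These 2 genes lay on opposite sides of the detection limit on every chip.

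Ion channels ranged widely. Of 38 sodium, calcium and HCN channel genes, 26 were above background, 8 bright and 3 undetected. Scn3b (15.44 ± 0.10), Cacna2d1 (13.98 ± 0.20) and Scn2a (12.50 ± 0.15) were bright, and the muscle channel Scn4a (1.91 ± 0.46) and the retinal channel Cacna1f (2.03 ± 0.41) were undetected. Of 75 potassium channel genes, 56 were above background, 6 bright and 8 undetected. Kcna1 had 12.75 ± 0.21, whereas Kcnj1, a kidney channel, had 1.72 ± 0.45 and Kcne4 1.59 ± 0.36.

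Neurotrophic genes were above background in 11 of 13 cases, 3 of them bright. Bdnf, the activity-dependent growth factor, read 9.19, 9.08, 9.17 and 9.01 and its receptor Ntrk2 read 13.08, 12.82, 13.21 and 12.87. The Cy5 chips lay below the Cy3 chips for Ntrk2. Ntrk3 had 12.76 ± 0.07, Ntf3 7.95 ± 0.07 and Ntf4 3.95 ± 0.26, the last above background on 2 chips. Gdnf was bright by 1 probe with 12.01 ± 0.16, and its second probe had 3.20. In the stress axis 9 of 12 genes were above background and 4 bright. The mineralocorticoid receptor Nr3c2 had 11.52 ± 0.08, the glucocorticoid receptor Nr3c1 10.34 ± 0.11, Hsd11b1, which regenerates corticosterone, 12.22 ± 0.14 and Fkbp5 10.97 ± 0.12. Crhr1 read 2.20, 5.32, 2.83 and 5.19, so it was high in Cy5 and low in Cy3. Of 14 clock genes, 13 were above background and 1 was bright, Bhlhe41 (13.48 ± 0.14), with Dbp at 10.76 ± 0.09, Per2 at 9.35 ± 0.05 and Bmal1 at 10.07 ± 0.15.

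Immune genes ranged from bright to undetected. Of 40 chemokines and receptors, 17 were above background and 9 were not, but 3 were bright, namely the neuronal chemokine Cx3cl1 (15.37 ± 0.18), Cxcl12 (12.90 ± 0.12) and Cxcl14 (11.96 ± 0.07). Of 41 interleukins and receptors, 17 were above background, none was bright and 11 were undetected, with the alarmin Il33 highest at 10.34 ± 0.13. Of 32 genes of the major histocompatibility complex and antigen processing, 22 were above background and 4 bright, led by B2m (14.25 ± 0.23). RT1 genes are close copies of each other, so their probes may share targets. The genes also measured by quantitative PCR were in part picked from these chips. A named probe stood for 11 of them, and 8 were above background. Of these, 5 lay over the 95th percentile of olfactory receptor signals, which is given below. Actb and Ntrk2 were bright, Cxcl10 had 7.41 ± 0.20, Ccl2 6.07 ± 0.27, Creb1 5.85 ± 0.31, Cxcl1 5.43 ± 0.53 and Avpr1a 5.39 ± 0.24. Il1b read 4.11, 4.33, 4.47 and 4.35 and was above background on 3 chips, Il2ra (4.07 ± 1.11) on 2, and Tnf, with 2.23, 2.61, 2.95 and 2.63, on none. Of 38 matrix genes, 28 were above background and 7 bright, among them Sparc (14.37 ± 0.12), Hapln2 of nodal matrix (13.07 ± 0.25) and Timp2 (13.72 ± 0.21).

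Genes of other organs were mostly partly detected or undetected, apart from muscle genes. Of 25 liver genes, 7 were above background, and the only bright one, Tf (transferrin, 13.62 ± 0.10), is also made by oligodendrocytes. Alb read 8.42, 8.30, 8.56 and 8.41 by its brightest of 3 probes, and its dimmest probe had 2.31. Of 19 pancreas and gut genes 5 were above background, of 21 testis genes 5, of 29 keratin genes 8 and of 55 cytochrome P450 genes 19. Cyp4f6 was the only bright P450 gene (11.55 ± 0.26), and the liver enzymes Cyp7a1 (2.22 ± 0.80) and Cyp2c12 (1.62 ± 0.35) were undetected. Of 23 skeletal and cardiac muscle genes 14 were above background, all moderate, with the myoglobin gene Mb at 9.45 ± 0.18, Myh7 at 8.90 ± 0.18 and the muscle regulators Myod1 and Myf6 undetected. Of 14 defensin and cystatin genes 4 were above background, Cst3 and Cst6 (12.40 ± 0.12) among them. Of 3 Hox genes, which pattern the body behind the midbrain, Hoxb7 had 6.55 ± 0.11 and Hoxa2 (2.01 ± 0.57) was undetected.

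Chemosensory receptors, whose known roles lie in the nose and mouth, gave mostly low signals. Of 12 taste receptors, 9 were undetected and none was above background on all chips. Of 15 trace amine receptors 1 was above background, Taar8c (7.21 ± 0.33), and of 12 vomeronasal receptors 3 were. Of the 1090 olfactory receptors, 443 were undetected, 539 were above background on some chips, 105 were moderate and 3 were bright. Their mean log2 signals had a median of 2.96 and a 95th percentile of 6.02. Among genes other than olfactory receptors, 5273 of 7808 (67.5%) lay over that percentile, and 702 of the 4429 moderate genes (15.9%) lay under it. Signals at this level were shared with receptors of the nose, from which the flag of the scanner software did not separate them. Over the percentile lay 9 of 40 chemokines and receptors, 12 of 41 interleukins and receptors and 14 of 34 monoamine, histamine and muscarinic receptors. So did 3 of 16 nicotinic, 18 of 24 immediate early and 2 of 11 choroid plexus genes. All 20 pan-neuronal, 17 astrocyte and 14 microglial genes also lay over it. The bright olfactory receptors were Or4f7c (12.19, 12.08, 12.29 and 12.11), Or10g9b (11.28, 11.56, 11.44 and 11.37) and Or2a57 (10.90, 11.21, 10.95 and 11.18). Or4f7c and Or10g9b lay over the bright limit on every chip and Or2a57 on the Cy5 chips, and whether their probes bind other transcripts was not tested.

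The precision of a value depended on its class. The median SD over the 4 chips was 0.13 for bright, 0.15 for moderate, 0.74 for partly detected and 0.62 for undetected probes. Between chips of the same dye the median absolute difference of bright probes was 0.07, and between chips of different dyes it was 0.19. The mean of the Cy5 chips differed from that of the Cy3 chips by more than 1 log2 step for 0 of 4101 bright probes, 1.88% of moderate, 43.7% of partly detected and 33.3% of undetected probes. Among named genes above background, Or2h1 was the most dye-dependent, with 5.92 and 5.34 in Cy3 against 3.69 and 3.51 in Cy5. Reg3g, Csap1, Lpp and Niban1 were also lower in Cy5, with Cy5 minus Cy3 differences of -1.79, -1.67, -1.67 and -1.66. Slc28a1, Cldn19, Or11m3, Slco4a1 and Olr1092 were higher in Cy5, the first by 0.99. The genes just inside the bright limit were Becn1 and Mrps26, both with 10.96, and just outside were Ssbp1 (10.96 ± 0.23) and Cyb5r1 (10.96 ± 0.07), so the limit separates no groups of its own.

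**Figure D5:**
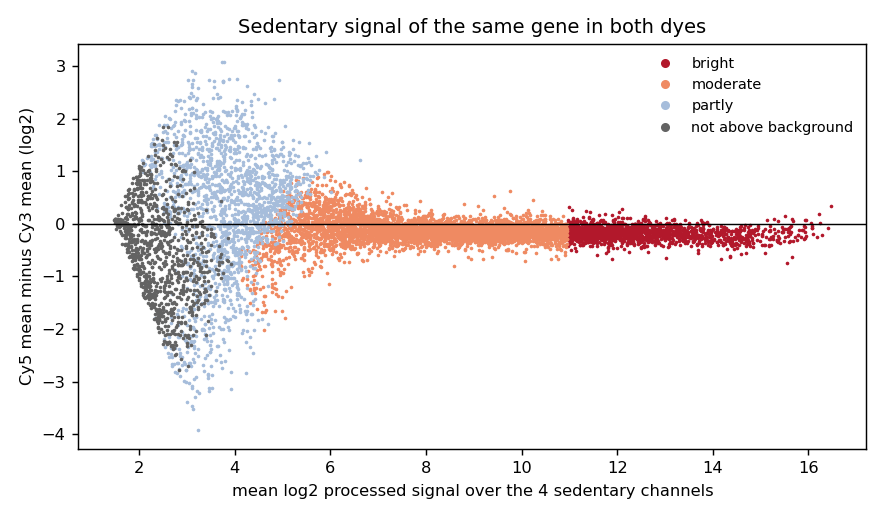
Mean of the Cy5 chips minus mean of the Cy3 chips (y axis, log2) against mean log2 processed signal (x axis) for the 8898 named genes, 1 point per gene, coloured by class. Bright genes scatter narrowly around a value slightly under 0 (median -0.18), and the scatter opens to several log2 steps among partly detected and undetected genes.

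The chips also differed in how many spots passed. Well above background were 67.5% of the spots on chip 1, 76.9% on chip 2, 77.6% on chip 3 and 82.5% on chip 4. Of the 9599 partly detected probes, 13.8% were above background on chip 1 and 78.7% on chip 4, and 2932 (30.5%) passed on all chips but chip 1. Calls of partial detection thus differed with the chip. Olfactory receptors above background numbered 108 on all 4 chips, 214 without chip 1 and 299 on the Cy5 chips alone. Across all probes, Pearson's r between chips lay between 0.95 and 0.99, as a description across the probes of 1 array design.

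Different probes of a gene often disagreed. For 1602 genes with several probes, the median range between the brightest and the dimmest probe was 2.01 log2 steps, and 41.5% of these genes had probes in several classes. Of 540 genes called bright by their brightest probe, 150 had all probes bright. The largest ranges among detected genes were those of Camk2b (13.65 against 3.23), Sv2b (15.93 against 6.26), Abi2 (14.45 against 5.05), Mtmr3 (12.77 against 3.89) and Gdnf (12.01 against 3.20). Of the 1462 genes with several probes that were above background, 36 also had a probe that was not above background on any chip. For the 7296 genes with 1 probe no such comparison could be made.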

How the data were processed

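Hippocampal RNA was measured in 2 colours on 4 rat 44K oligonucleotide chips. The authors pooled RNA within each group, labelled it with Cy3 or Cy5, and processed the scans with Agilent Feature Extraction 11.0.1.1, per the submitters' processing notes. The deposited processed signal is an intensity after background subtraction and dye normalization by LOWESS within a chip, so a sedentary value also depends on the running pool on the same chip. Deposited log ratios and their p-values compare the groups and were not used.

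Here the control channel of each chip was taken by the dye in its label. Control spots and spots with an outlier flag in the sedentary channel were left out (69 to 103 of 43379 spots per chip), log2 intensities of the spots of a probe were averaged (263 probes had 10 spots), and 8 probes were lost. A probe was above background on a chip if more than 50% of its spots had the well-above-background flag. Bright, moderate and other classes followed from the mean over chips. No test was made. The number of chips limits the precision.

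Unversioned accessions were looked up in a RefSeq gene table (GRCr8), the source of names and promoters, and 10768 of 41012 probes were named. Counts used 60 gene lists, 59 with a measured gene; none of the 9 genes on the Y chromosome or Xist had a named probe. The members and lists were chosen with earlier results of these data known. The genes named were the 20 brightest, the brightest 6 and dimmest 4 of each list at most, all members of lists of up to 20 genes, the genes of quantitative PCR, and those at the extremes of dye, of probe range and of the bright limit; of these, the most telling are printed, and some are not reported here. Some listed genes between these ranks were named after their values were seen.

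Alternatives were background correction (median spot signal without subtraction, or normexp with offset 50), scaling to the 75th percentile, quantile normalization, 1 dye, 1 chip left out, median over spots, flagged spots kept, another detection flag, and 5% or 25% as bright. The files hold no mean spot signal, so the median signal took its place. Python 3.11.15, numpy 2.4.6, pandas 2.3.3, R 4.3.3 and limma 3.58.1 were used, and the classing was tested on simulated data.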

Additional observations from a re-analysis of the deposited data

Results flagged for a closer look

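For the 276 genes named in the report, the 4 chips were searched for a chip that stood far from the other 3, by Dixon's 95% limit on the gap to the nearest chip over the whole range. Chance flags about 1 in 20 such groups, and 6 of 276 genes were found.

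Chip 3 was high in 4 of them, by little. Gria2 read 12.88 on chip 3 and 12.69 on average on the others, Reln 11.43 and 11.28, Tbp 8.85 and 8.68, and Avp 7.38 and 7.23. Chip 1 stood apart in the other 2. Ugt8 read 4.71 on chip 1 and 6.25 on average on the others, and Chrm5, which was not above background on any chip, read 4.35 on chip 1 and 2.85 on the others. Chip 1 also had the lowest share of spots above background. The part of the chip in these values was not tested.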

How the results depend on the processing

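Of 15 counts that carry the report, 222 of 236 values under the alternatives lay within 1.5 times the reported count. Part of this agreement was fixed in advance. The background, scaling, quantile, median-over-spots and bright-limit alternatives kept the reported detection calls, so counts of detected and undetected probes could not change there. Scaling to the 75th percentile shifted each chip by a constant and could change no count. The neuronal, astrocyte and microglial counts were already full. Leaving out chips or using the looser positive-and-significant flag cannot undo the detection of a probe, so they had little room to change. That flag also left the signals, and so the bright probes, as they were. The counts of bright ribosomal and respiratory genes could change with 1 dye, with 1 chip left out and with quantile normalization, and stayed at 63 and 40. Of the 4101 bright probes, 4042 were shared with Cy3 alone and 4047 with Cy5 alone. The values outside 1.5 times the reported count concerned dim probes and the limits themselves. With Cy3 alone, 4662 probes were partly detected, 9178 probes and 1878 named genes were undetected. With Cy5 alone, 3098 probes were partly detected and 299 olfactory receptors were above background. With the positive-and-significant flag, 5789 probes were partly detected, 515 probes, 125 named genes and 1 taste receptor were undetected, and 419 olfactory receptors were above background. With 5% as bright, 2051 probes of the bright class were left and 840 named genes were bright, and with 25%, 3340 named genes were bright, by the construction of these limits. The cause of the other changes was not tested.

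Leaving out 1 chip at a time gave 26119 to 29001 probes above background on all chips, 6543 to 9157 partly detected and 5463 to 7166 undetected, and 4074 to 4086 shared bright probes. A probe above background on all chips or on none stays so when a chip is left out, while a partly detected one can join either. The detection ranges therefore lie on 1 side of the reported counts by construction, and the same holds for 1 dye alone. Named genes above background ranged from 6093 to 6580, bright from 1540 to 1546 and undetected from 1084 to 1509. Olfactory receptors above background ranged from 108 to 214, the highest without chip 1, oligodendrocyte genes from 16 to 17 and undetected taste receptors from 9 to 10.

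The place of the 276 named genes among all probes stayed within its SD over chips in 4029 of 4416 values. These include values that could not move. Scaling to the 75th percentile, the positive-and-significant flag and the 5% and 25% limits leave the rank by mean signal unchanged (largest change 0.000). The place of a gene moved most, by up to 62.3 percentage points, where the median over the probes of a gene replaced the brightest probe. Names from the array's own annotation were not tried, since the files give accessions. No paired analysis was possible because only the sedentary group was described. Signal over background limits the dim end, where the SD reached several times that of bright probes.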

Other observations

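The chips held bright probes beyond the named genes. Of the 100 probes with the highest mean log2 signal, 55 had a gene name, for 53 genes, and the remaining ones could not be named from the table used. Among probes without a gene name, 2339 of 30237 (7.74%) were bright and 4147 (13.7%) were undetected, against 16.4% and 11.1% of the 10767 named probes. Probes designed on RefSeq transcripts of the NM series were bright in 16.3% of 11137 cases, and probes designed on expressed sequence tags or other database entries in 5.14% of 11598.

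A few sedentary values differed between the chips hybridized with the WR pool and those hybridized with the RWR pool, in both dyes. The genes in this comparison were chosen after their values were seen. Of 6082 genes above background on all chips, 42 were higher on chips 3 and 4 than on chips 1 and 2 of the same dye by more than 0.5 log2 in both dyes, and 11 were lower, and of these 53 genes 1 was bright. Nudt9, a nucleotide hydrolase gene, read 8.70 and 10.21 in Cy3 and 9.57 and 10.57 in Cy5. Tmub2 went the other way, with 10.40 and 9.01 in Cy3 and 9.56 and 8.58 in Cy5, and the vascular receptor Notch3 read 11.62 and 10.80 in Cy3 and 10.89 and 10.34 in Cy5. The median shift over all 6082 genes was 0.12 in Cy3 and 0.01 in Cy5. Both pairs of channels carry the sedentary label, the pairs also differ in chip and in the pool on the other dye, and these cannot be told apart.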
